A study of Mus musculus with 9 samples.

Results

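The enzymes that add methyl and acetyl groups to histones, called writers, and those that take them off, called erasers, were followed in the polysome-bound mRNA of maturing mouse oocytes. Members were the genes whose symbols carry the family names of these enzymes (Kmt, Setd, Setmar, Suv, Ehmt, Ezh, Dot1l, Nsd, Prmt, Kat, Ep300 and Crebbp for writers, and Kdm, Hdac and Sirt for erasers) and which had a probe set annotated with a single symbol. This gave 83 genes of the 18193 measured, of which 46 were writers and 36 erasers. The writers were 28 lysine methyltransferases, 8 arginine methyltransferases and 10 acetyltransferases, and the erasers were 18 lysine demethylases, 11 zinc-dependent deacetylases and 7 sirtuins, which are deacetylases that need NAD. The remaining gene, Ezhip, shares the letters of the Ezh family but encodes an inhibitor of it, and was counted with neither side.

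Oocytes were collected from mice primed with PMSG, a gonadotrophin that makes follicles grow, and then given hCG, the hormone that sets off maturation and ovulation. Groups were the germinal vesicle (GV) stage, arrested in prophase, metaphase I (MI), and metaphase II (MII), where the ovulated egg arrests, with 0, 4 and 14 h of hCG as the times listed for them. Each stage had 3 Affymetrix arrays, and the labels call these biological replicates without saying whether animals were shared, so the spread behind each p is that between these samples and may be technical. The labels give no strain, age, genotype or other treatment, nor how polysomes were isolated. The description field of the MI samples carries an unexplained abbreviation, pGVB, while their titles and stage fields say MI.

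Lysine methylation marks chromatin by position. Methylation of H3K4 goes with active promoters, that of H3K36 with transcribed gene bodies, and that of H3K9, H3K27 and H4K20 with repressed or compacted chromatin, while acetylation opens chromatin. Growing oocytes build up these marks, the fully grown oocyte falls silent in transcription, and histones lose much of their acetylation during maturation, so that proteins made in this window come from stored mRNA recruited to ribosomes. A polysome-bound signal depends on an mRNA's abundance as well as on its ribosome loading, and these cannot be told apart here, nor can fewer cells and less RNA per cell.

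Values are the deposited probe-set intensities, on a linear scale, and changes are differences between stage means of log2(intensity + 16), which understate changes at low intensity. All 9 arrays entered one limma fit. Members are said to have passed where the two-sided p, after Benjamini-Hochberg adjustment over the 18193 genes, was under 0.05, and each gene is represented by its brightest probe set. Where a call is said to be lost without certain arrays, each of them was left out singly and the gene no longer passed. Array medians were close, between 12.39 and 13.22, and between 53.1% and 54.8% of probe sets lay below an intensity of 16, so low members cannot be told from background. Pearson correlations of log2 values over genes, between arrays of 2 stages, were 0.868 to 0.931 for MI with GV, 0.784 to 0.861 for MII with MI and 0.757 to 0.834 for MII with GV. Within a stage they were 0.897 to 0.917 for GV, 0.876 to 0.934 for MI and 0.889 to 0.919 for MII. Values of MI with GV thus overlapped those within a stage, while those of MII with either lay below them. All 12 oocyte markers measured were above 100 on every GV and MI array and 11 on every MII array. The exception, Figla, was at 15.5 to 24.5 on MII arrays. The 16 measured granulosa and cumulus cell markers had summed intensities of 755 to 1151 on MII, 1070 to 1460 on MI and 1096 to 1431 on GV arrays, against oocyte marker sums of 39022 to 45393, 61901 to 68620 and 68766 to 74093 in the same order. Fshr, which defines granulosa cells, stayed at or below 13.95, while Cyp11a1 was at 19.5 to 394 on MII and 130 to 783 on GV arrays, Gja1 at 3.28 to 11.3 and 99.2 to 340.3, Star at 67.2 to 96.6 and 40.2 to 403, and Nr5a2 at 204 to 725 and 29.7 to 120.1. The 4 measured blood, immune and endothelial markers summed to 597 to 839 on MII, 98 to 574 on MI and 152 to 314 on GV arrays, mainly through Pecam1, while Ptprc stayed at or below 45.5. The part of these marker levels in the results was not tested.

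MII oocytes differed from GV oocytes in 18 of the 83 members. There were 9 higher in MII, among them the arginine methyltransferase gene Prmt1 (4.7-fold), the H3K4 demethylase gene Kdm5c (4.07-fold) and the acetyltransferase gene Kat7 (3.19-fold). Another 9 were lower, led by the acetyltransferase gene Kat5 (11.3-fold) and including the H3K4 demethylase gene Kdm5b (7.28-fold). The members' share was 21.7%, where 14.3% of all genes passed, with 5.46% of all genes higher and 8.8% lower. Intensity differs between these sets, since 57 of the 83 members (68.7%) but 41.4% of all genes had a mean of 100 or more over the 9 arrays. Among genes at or above that mean, 31.6% of members and 31.7% of all genes passed (9 members higher and 9 lower, where 11.7% and 20% of such genes were), so the members' share did not exceed the background at like signal. The median change of the members was 0.33, against −0.02 over all genes. Among those with a mean of 100 or more it was 0.62, against −0.23 over such genes. At an unadjusted p under 0.05 there were 32 members. The MII arrays lay wholly above the GV arrays for 23 members and wholly below for 15, where 14.1% and 17.3% of all genes were so separated. The arrays decide part of this count, with 4 lower members without GV 2 and 5 without GV 3, and scaling decides the split, with 14 higher and 8 lower members after quantile normalization or after scaling arrays to a common 95th percentile.

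Writers and erasers changed in both directions. Of the 46 writers, 4 were higher and 6 lower in MII than in GV, and of the 36 erasers 4 were higher and 3 lower. The sides follow family names, so they include Setd3 and Sirt4, described below as acting on actin and in mitochondria. The median change was 0.31 over writers and 0.34 over erasers, a difference of −0.03. Signal differs between the sides, since 76.1% of writers and 58.3% of erasers had a mean of 100 or more. Among these the medians were 0.56 (35 writers) and 0.85 (21 erasers). That mean includes the MII arrays, so the cutoff depends in part on the change itself. It kept erasers such as Sirt4 and Hdac8, higher in MII, with GV means of 34.8 and 68.5. It dropped Hdac3, Sirt2 and Kdm4b, with changes of −1.95, −1.50 and −0.89 and GV means of 170.7, 142.7 and 162.9. These 2 medians thus do not compare the sides at like signal. On single arrays, the median deviation of writers from each gene's own mean ran from −0.11 to −0.01 on GV arrays, from −0.25 to −0.07 on MI arrays and from 0.01 to 0.35 on MII arrays, and that of erasers from −0.35 to −0.03, from −0.10 to −0.07 and from −0.06 to 0.16. The lowest MII value of writers (0.01, MII 2) was next to their highest GV value (−0.01, GV 1), and the difference between writers and erasers was not tested. Without GV 3 and MI 3, the arrays of their stages with the highest median of granulosa markers, the writers' median change was 0.09 and the difference −0.30. Leaving out single arrays, the difference between writers and erasers was −0.30 without GV 3, −0.19 without MII 1, 0.25 without GV 1 and 0.32 without MII 3, so its sign is not fixed by these data. By class, medians were 0.58 for demethylases, 0.31 for lysine methyltransferases, 0.24 for arginine methyltransferases, 0.22 for acetyltransferases, −0.28 for zinc-dependent deacetylases and −0.59 for sirtuins. With a mean of 100 or more, the last medians were 0.41 (5 zinc-dependent deacetylases) and 1.55 (5 sirtuins), where such genes overall had −0.23. Since that cutoff depends on the change, these values do not show that the signs turn with signal. Of the other classes at that signal, demethylases had 0.85, arginine methyltransferases 0.72, acetyltransferases 0.56 and lysine methyltransferases 0.33. Counts were small in each: 2 demethylases passed as higher and 1 as lower, 2 and 2 lysine methyltransferases, and 1 and 3 acetyltransferases, while arginine methyltransferases, zinc-dependent deacetylases and sirtuins had 1 each way.

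**Figure D1:**
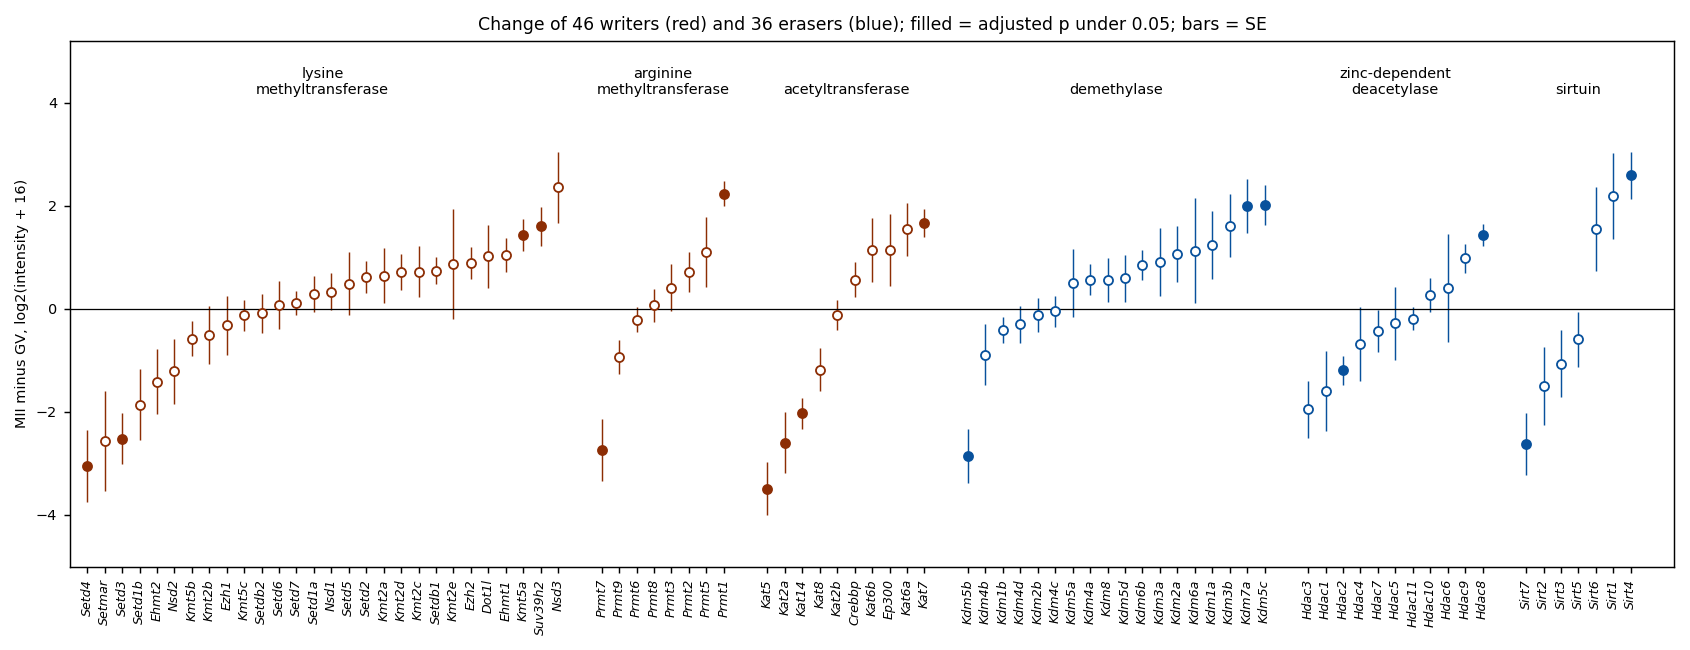
Change of each of the 46 writers (red) and 36 erasers (blue) between MII and GV, as MII minus GV on the log2(intensity + 16) scale, sorted within each class; bars are the standard error of the fit (3 arrays a stage) and filled points passed at an adjusted p under 0.05. Each class has members on both sides of 0, from Kat5 at −3.49 to Sirt4 at 2.59.

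**Figure D2:**
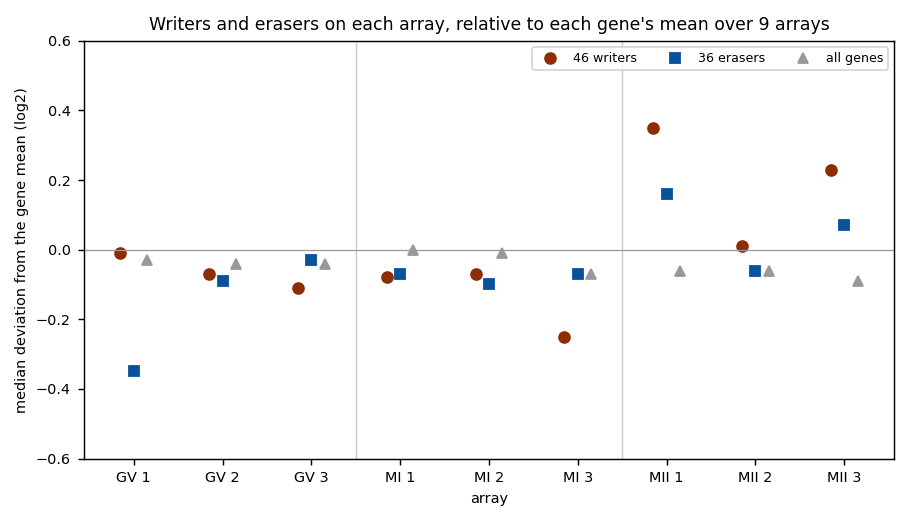
Median over 46 writers, 36 erasers and all 18193 genes of the deviation of log2(intensity + 16) from each gene's own mean over 9 arrays, array by array. Writers lie at 0.01 to 0.35 on the MII arrays and at −0.25 to −0.01 on the others.

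Acetyltransferases held 3 of the 9 lower members. Kat5, or Tip60, the catalytic subunit of the NuA4 complex that acetylates histones H4 and H2A and works in DNA repair, had intensities of 597, 510.1 and 1648 on the GV arrays, 1095, 814 and 907 on the MI arrays and 39.4, 35.3 and 117 on the MII arrays. The MII arrays lay below all GV and MI arrays without overlap, and Kat5 was 11.3-fold lower (log2 −3.49, SE 0.51, adjusted p = 0.00421) in MII than in GV. Kat14, a subunit of the ATAC complex with an acetyltransferase domain of its own, had 1702, 2313 and 2303 on the GV arrays, 1897, 2567 and 1911 on the MI arrays and 748, 443 and 372 on the MII arrays. It too was lower on every MII array than on any other, 4.09-fold lower (log2 −2.03, SE 0.30, adjusted p = 0.00425) against GV. For Kat5 and Kat14 a second probe set with a mean over 100 changed the same way, by −2.35 and −1.84 (adjusted p = 0.00297 and 0.0133 over all probe sets). Kat2a, or Gcn5, the acetyltransferase of the SAGA and ATAC complexes, had 555, 2949 and 1927 on the GV arrays, 231, 176 and 325 on the MI arrays and 327, 161 and 229 on the MII arrays. Its MI arrays were already below all GV arrays and overlapped the MII arrays, with a difference of −2.56 for MI against GV that did not pass (adjusted p = 0.385). Kat2a was 6.05-fold lower (log2 −2.60, SE 0.59, adjusted p = 0.0225) in MII than in GV, a call that was lost without GV 2, GV 3, MII 2 or MII 3 (adjusted p 0.0622 to 0.0754). Its other probe sets changed by −5.23 (adjusted p = 0.00197) and by −0.80 (adjusted p = 0.521).

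Kat7 was the single acetyltransferase that passed as higher. Kat7, or Hbo1, acetylates histone H3 and H4 tails and takes part in the licensing of DNA replication, and its intensities were 273, 359 and 448 on the GV arrays, 572, 687 and 530 on the MI arrays and 1167, 899 and 1485 on the MII arrays. The stages did not overlap, with MI arrays between GV and MII arrays, and Kat7 was 3.19-fold higher (log2 1.67, SE 0.27, adjusted p = 0.00623) in MII than in GV. The coactivator acetyltransferase Crebbp had 1938, 1167 and 1347 on the GV arrays, 1787, 974 and 876 on the MI arrays and 2714, 1968 and 1858 on the MII arrays, with MII arrays that were above MI but overlapped GV. Its brightest probe set differed by 0.56 between MII and GV (adjusted p = 0.369), while another probe set with a mean of 825 differed by −1.43 (adjusted p = 0.0179 over all probe sets), so Crebbp has no single direction on this array. Kat6a, chosen after its values were seen, was at 221, 169 and 264 on the MII and 162, 47 and 28.2 on the GV arrays, without overlap, and did not pass (adjusted p = 0.0923). A further Kat6a probe set, with a mean of 31.2, rose by 1.73 in MII against GV (adjusted p = 0.00276 over all probe sets). It was at 6.13 to 13.9 on the GV arrays, within background, and at 60.4 to 93.6 on the MII arrays.

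**Figure D3:**
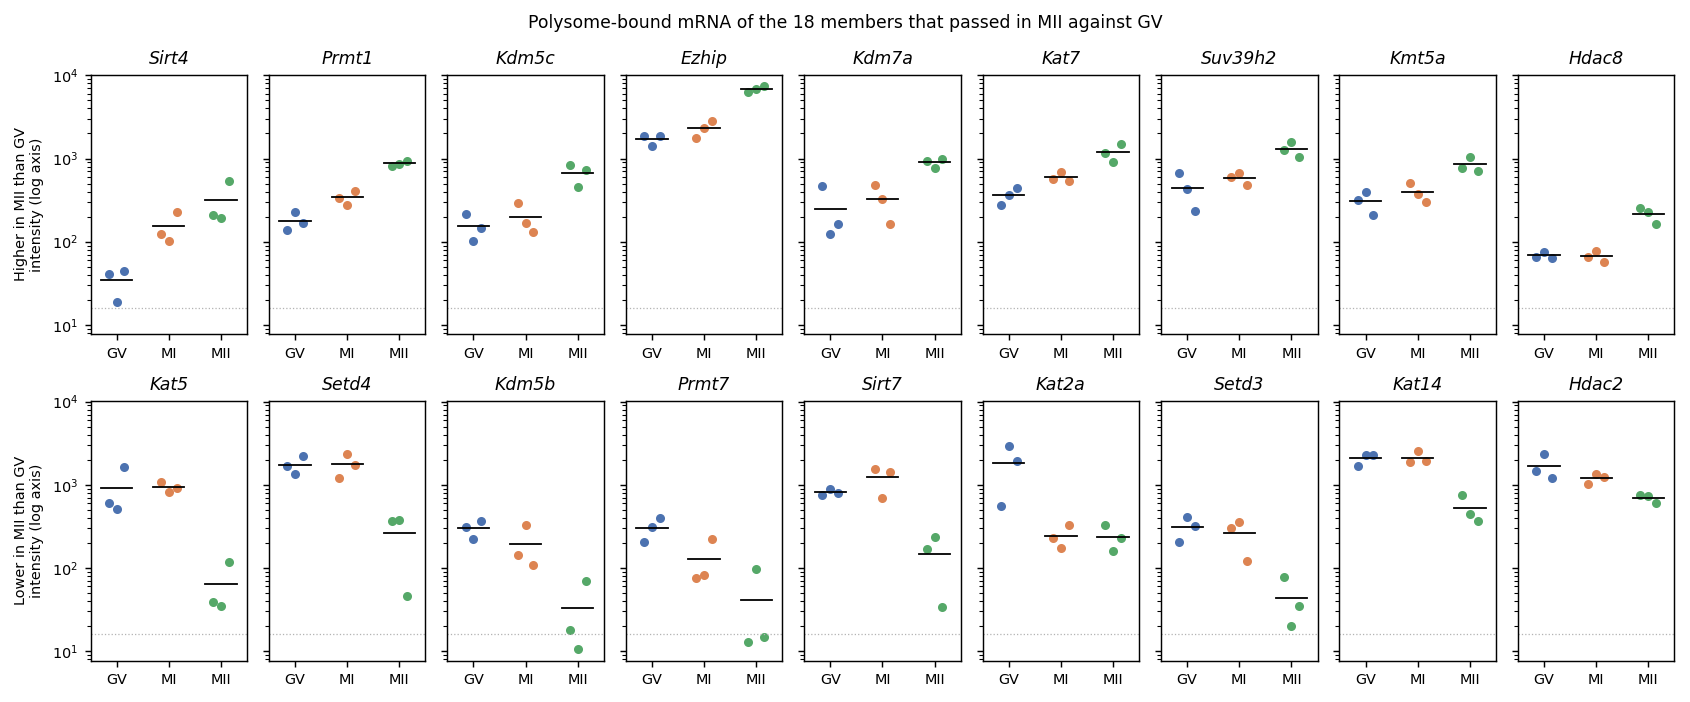
Polysome-bound mRNA of the 18 members that passed in MII against GV, as probe-set intensity on a log axis, with a point for each array, a bar at the mean of 3 arrays, and a dotted line at 16. In every panel the 3 MII arrays lie wholly above (top row) or wholly below (bottom row) the 3 GV arrays.

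Of 8 arginine methyltransferases, Prmt1 passed as higher and Prmt7 as lower. Prmt1, which makes most asymmetric dimethylarginine in mammalian cells, including that of histone H4, had 137, 226 and 167 on the GV arrays, 339, 276 and 409.5 on the MI arrays and 821, 854 and 944 on the MII arrays. No stages overlapped, and Prmt1 was 4.7-fold higher (log2 2.23, SE 0.24, adjusted p = 0.00157) in MII than in GV. Prmt7, which leaves arginine monomethylated, had 206, 311 and 397 on the GV arrays, 76.9, 83 and 224 on the MI arrays and 12.8, 96.5 and 14.8 on the MII arrays. The MII arrays were below every GV array but overlapped MI, since MII 2 was at 96.5, and 2 of the MII arrays were at background. Prmt7 was 6.69-fold lower (log2 −2.74, SE 0.60, adjusted p = 0.0197), a call lost without GV 2, GV 3, MII 1 or MII 3 (adjusted p 0.06 to 0.0706). Prmt2, the brightest member of the class, had 1017, 843 and 1192 on the GV arrays, 963, 965 and 443 on the MI arrays and 2589, 1360 and 1306 on the MII arrays. Its MII arrays were above all others, and it did not pass (0.72 against GV, adjusted p = 0.317).

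Of 28 lysine methyltransferases, 4 passed. Suv39h2, which trimethylates H3K9 in heterochromatin, had 679, 430 and 231 on the GV arrays, 597, 668 and 475 on the MI arrays and 1268, 1559 and 1038 on the MII arrays. Every MII array was above every other array, and Suv39h2 was 3.03-fold higher (log2 1.60, SE 0.38, adjusted p = 0.0268) in MII than in GV. The call was lost without GV 2, GV 3, MII 1, MII 2 or MII 3 (adjusted p 0.0522 to 0.0842). Kmt5a, which monomethylates H4K20 and is needed for chromosome condensation in dividing cells, had 318, 395 and 211 on the GV arrays, 502, 374 and 297 on the MI arrays and 779, 1056 and 717 on the MII arrays. It was higher on all MII arrays than on any other, 2.72-fold higher (log2 1.44, SE 0.31, adjusted p = 0.0178) against GV, and its call was lost without GV 3 or MII 2 (adjusted p 0.0527 to 0.0575). Another Kmt5a probe set changed by 1.92 (adjusted p = 0.0109 over all probe sets), and the 2 further bright probe sets of Suv39h2 changed by 1.34 and 1.98 without passing (adjusted p = 0.0598 and 0.0852).

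The lysine methyltransferases that were lower carry the SET domain in their names but are not known as major histone writers. Setd3, which methylates a histidine of actin, had 205, 416 and 323 on the GV arrays, 305, 362 and 121 on the MI arrays and 77, 20.03 and 34.7 on the MII arrays. The MII arrays were below all others, and Setd3 was 5.75-fold lower (log2 −2.52, SE 0.50, adjusted p = 0.0132) in MII than in GV. Setd4, a SET-domain protein whose substrates are less settled, had 1694, 1356 and 2213 on the GV arrays, 1207, 2374 and 1711 on the MI arrays and 362, 378 and 46.2 on the MII arrays. MII 3 was far below the other MII arrays, and all 3 were below every GV and MI array. Setd4 was 8.26-fold lower (log2 −3.05, SE 0.69, adjusted p = 0.0219), and a further probe set changed by −2.76 (adjusted p = 0.0237), but the call was lost without GV 1, GV 2 or GV 3 (adjusted p 0.051 to 0.0727). The brightest lysine methyltransferases, Nsd1 for H3K36 and Kmt2d for H3K4, differed by 0.33 (adjusted p = 0.676) and 0.71 (adjusted p = 0.254) between MII and GV. Another Nsd1 probe set, with a mean of 99.3, changed by 1.42 (adjusted p = 0.0119).

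Among the erasers, Kdm5c and Kdm5b, which both remove methyl groups from H3K4, changed in opposite directions. Kdm5c, encoded on the X chromosome, had 218, 102 and 146 on the GV arrays, 292, 169 and 130.1 on the MI arrays and 843, 456 and 727 on the MII arrays. All MII arrays exceeded all others, and Kdm5c was 4.07-fold higher (log2 2.02, SE 0.39, adjusted p = 0.0118) in MII than in GV. Its other 4 probe sets with a mean of 100 or more changed by 1.13 to 2.92, and 2 of them passed. Kdm5b had 307, 225 and 366 on the GV arrays, 143, 325 and 107 on the MI arrays and 17.8, 10.6 and 69.96 on the MII arrays. Its MII arrays were below all others, with MII 1 and MII 2 near background, and it was 7.28-fold lower (log2 −2.86, SE 0.52, adjusted p = 0.00964). The other Kdm5b probe sets had means of 42.9 or less and changed by 0.62, 0.32 and −0.09, and the mean over all its probe sets changed by −0.50 and did not pass (adjusted p = 0.199). Kdm7a, a demethylase of H3K9 and H3K27, had 464, 123 and 163 on the GV arrays, 486, 326 and 162 on the MI arrays and 942, 768 and 984 on the MII arrays. Its MII arrays were above all others but GV 1 and MI 1 stood well above GV 2 and MI 3, and Kdm7a was 3.97-fold higher (log2 1.99, SE 0.52, adjusted p = 0.0406) in MII than in GV, a call lost without GV 2, GV 3, MI 2, MII 1, MII 2 or MII 3 (adjusted p 0.0638 to 0.121).

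Kdm6b, Kdm2b and Kdm6a were bright but did not pass. Kdm6b, an H3K27 demethylase, had 1871, 2433 and 1643 on the GV arrays, 4700, 3692 and 3046 on the MI arrays and 4936, 3024 and 2962 on the MII arrays. Its MI and MII arrays were all above its GV arrays, by 0.85 in MII against GV (adjusted p = 0.101) and 0.93 in MI against GV (adjusted p = 0.549). Kdm2b, an H3K36 demethylase that also brings Polycomb complexes to CpG islands, overlapped between all stages and differed by −0.12 between MII and GV (adjusted p = 0.889). A second Kdm2b probe set, with a mean of 1148, fell by 1.50 (adjusted p = 0.00742 over all probe sets). Kdm6a, the X-linked H3K27 demethylase, was chosen after its values were seen. It had 4992, 399 and 547 on the GV arrays, 714, 672 and 484 on the MI arrays and 1619, 1021 and 7184 on the MII arrays. GV 1 and MII 3 stood far above the rest, the difference did not pass (adjusted p = 0.593), and another probe set rose by 2.57 (adjusted p = 0.00799).

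The zinc-dependent deacetylases that passed were both of class I. Hdac8, which deacetylates the cohesin subunit Smc3, had 66.1, 76.2 and 63.3 on the GV arrays, 66.4, 77.3 and 56.6 on the MI arrays and 256, 225 and 165 on the MII arrays. GV and MI arrays overlapped and all MII arrays were above them, and Hdac8 was 2.7-fold higher (log2 1.43, SE 0.22, adjusted p = 0.00527) in MII than in GV. With an intensity trend in the variance Hdac8 did not pass (adjusted p = 0.086). Hdac2, a catalytic subunit of the Sin3, NuRD and CoREST complexes, had 1459, 2350 and 1223 on the GV arrays, 1009, 1345 and 1247 on the MI arrays and 760, 731 and 609 on the MII arrays. Its MII arrays were below all others, 2.29-fold lower (log2 −1.19, SE 0.28, adjusted p = 0.0257) against GV. The Hdac2 call was lost without GV 1, GV 2, MII 1, MII 2 or MII 3 (adjusted p 0.0534 to 0.0832), and after quantile, median or 95th percentile scaling (adjusted p = 0.0629, 0.0624 and 0.0712), while a second probe set fell by 1.63 (adjusted p = 0.0117). Hdac3, the catalytic subunit of the NCoR complexes, had 208, 161 and 144 on the GV arrays, 21.8, 109 and 14.3 on the MI arrays and 58.2, 29.96 and 15.9 on the MII arrays. MI and MII arrays were below all GV arrays, and Hdac3 did not pass in MII against GV (−1.95, adjusted p = 0.0505) or in MI against GV (−1.82, adjusted p = 0.533). Hdac9, a class IIa deacetylase, was above its GV values on every MII array (0.98, adjusted p = 0.0509). A second Hdac9 probe set, with a mean of 57.5, rose by 1.81 (adjusted p = 0.0458 over all probe sets).

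Sirtuins act in different compartments. Sirt4, a mitochondrial sirtuin that does not act on histones, had 41.1, 18.8 and 44.5 on the GV arrays, 125, 103 and 229 on the MI arrays and 208, 192 and 541 on the MII arrays. Every MI and MII array was above every GV array, MI and MII overlapped, and Sirt4 was 6-fold higher (log2 2.59, SE 0.46, adjusted p = 0.00864) in MII than in GV. Sirt7, a nucleolar sirtuin that deacetylates H3K18, had 746, 888 and 805 on the GV arrays, 1568, 685 and 1427 on the MI arrays and 170.3, 239 and 34 on the MII arrays. The MII arrays lay below all GV and MI arrays, with MII 3 the lowest, and Sirt7 was 6.2-fold lower (log2 −2.63, SE 0.60, adjusted p = 0.0225) in MII than in GV, a call lost without GV 1, GV 2 or GV 3 (adjusted p 0.057 to 0.0673). The nuclear sirtuin gene Sirt6 overlapped between stages and differed by 1.55 (adjusted p = 0.296).

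Ezhip, which in the mouse is expressed in gonads and inhibits the methyltransferase activity of Polycomb repressive complex 2 (PRC2), had 1881, 1403 and 1841 on the GV arrays, 1782, 2339 and 2820 on the MI arrays and 6237, 6766 and 7370 on the MII arrays. Every MII array was above all GV and MI arrays, and Ezhip was 3.97-fold higher (log2 1.99, SE 0.24, adjusted p = 0.00201) in MII than in GV. The catalytic subunits of PRC2 did not pass. Ezh2 differed by 0.88 (adjusted p = 0.113) and Ezh1 by −0.32 (adjusted p = 0.821) between MII and GV, both chosen after their values were seen. For Ezh1, GV 1 was at 2937, against 576 and 887 on the other GV arrays. Another Ezh1 probe set, with a mean of 178, rose by 1.31 without passing (adjusted p = 0.0504 over all probe sets).

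Sorted by the mark they act on, few enzymes of any one mark passed in MII against GV. Of all genes 14.3% passed, and of those with a mean of 100 or more 31.7%. The lists hold 2 to 7 genes each, too few to set against these shares. None of 7 H3K4 writers passed (Setd1b alone was at an unadjusted p under 0.05), and 2 of 6 H3K4 erasers did, in opposite directions. For H3K9, 1 of 5 measured writers (Suv39h2) and 0 of 6 erasers of the Kdm3 and Kdm4 families passed. The writers Ehmt1 (1.04, adjusted p = 0.0765) and Setdb1 (0.74, adjusted p = 0.103) and the eraser Kdm3b were at an unadjusted p under 0.05. Kdm4a was the single eraser with a mean of 100 or more. For H3K27, 0 of 2 writers (Ezh1 and Ezh2) and 0 of 2 erasers (Kdm6a and Kdm6b) passed by limma, with Ezh2 and Kdm6b at an unadjusted p under 0.05. Kdm7a, which acts on both H3K9 and H3K27 and passed as higher, stands in neither list. For H3K36, 0 of 4 writers and 0 of 2 erasers passed, with Nsd3 at an unadjusted p under 0.05 (2.36, adjusted p = 0.0579). Setd1b, Ehmt1, Setdb1, Kdm3b, Kdm4a and Nsd3 were chosen after their values were seen. For H4K20, Kmt5a alone passed of 3 writers.

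Between MII and MI, 10 members passed, 4 higher and 6 lower in MII, or 12% where 9.32% of all genes passed (2.54% higher and 6.78% lower). At a mean of 100 or more the shares were 17.5% of members and 20.8% of all genes, with 5.28% of such genes higher and 15.5% lower. The MII arrays were wholly above the MI arrays for 23 members and wholly below for 14, where 11.7% and 15.3% of all genes were. This comparison uses the same MII arrays as that with GV. All 10 had passed there in the same direction. Higher in MII than in MI were Ezhip (1.57, adjusted p = 0.00733), Hdac8 (1.47, adjusted p = 0.00741), Prmt1 (1.33, adjusted p = 0.015) and Kdm5c (1.73, adjusted p = 0.0305). Lower were Kat5 (−3.71, adjusted p = 0.00542), Kat14 (−2.04, adjusted p = 0.00658), Sirt7 (−3.13, adjusted p = 0.0171), Setd4 (−3.03, adjusted p = 0.031), Setd3 (−2.20, adjusted p = 0.0312) and Kdm5b (−2.15, adjusted p = 0.0413). Ezhip, Hdac8, Kat5 and Kat14 passed without any one of the 9 arrays, but Ezhip did not pass with a pseudocount of 1 (adjusted p = 0.0559), nor Hdac8 with an intensity trend in the variance (adjusted p = 0.103). Prmt1 was lost without MI 2 or MII 3 (adjusted p 0.0529 to 0.056), Sirt7 without MI 1 (adjusted p = 0.0582), Kdm5c without MI 2, MI 3, MII 1 and MII 3, each left out singly (adjusted p 0.0794 to 0.0971), Setd4 without GV 1, MI 1, MI 2 or MI 3 (adjusted p 0.0522 to 0.103), Setd3 without GV 3, MI 1, MI 2, MII 2 or MII 3 (adjusted p 0.0506 to 0.104) and Kdm5b without GV 1, GV 2, GV 3, MI 1, MI 2, MII 1 or MII 2 (adjusted p 0.0594 to 0.117). The count of lower members was 2 without MI 1 and 3 without MI 2, that of higher members was 2 without MI 2, and quantile normalization gave 13 higher and 5 lower. Writers had 1 higher and 4 lower with a median of 0.17, and erasers 2 and 2 with a median of 0.03.

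No member passed between MI and GV by limma, where 0% of all genes passed. At an unadjusted p under 0.05 there were 10 members, and the medians were −0.02 for writers and 0.00 for erasers. The MI arrays were wholly above the GV arrays for 7 members and wholly below for 5, where 6.42% and 6% of all genes were separated in this way. The smallest adjusted p of a member was that of Kat2a (0.385). Kmt2b, an H3K4 methyltransferase that oocytes need for their fertility, was at 540.1, 213 and 206 on the MI arrays, against 765, 559 and 2092 on the GV arrays, and at 847, 481 and 747 on the MII arrays. Its MI arrays were below all GV arrays, with a difference of −1.69 (adjusted p = 0.585). The MI value of the 18 members that passed between MII and GV stood at different points of that change. For Hdac8, Kat14, Kat5 and Setd4, the MI mean had moved −2%, −1%, −6% and 1% of the way on the log2 scale, whereas for Prmt1, Kat7, Sirt4 and Kat2a it had moved 40%, 43%, 66% and 98%. Another Kat2a probe set, with a mean of 305.5, changed by −2.27 in MI against GV. In MII against MI that probe set changed by −2.96 (adjusted p = 0.0212 over all probe sets), so the 98% holds for the brightest one only. The second Kat5 probe set, with a mean of 149, rose by 1.56 in MI against GV without passing (adjusted p = 0.299 over all probe sets). Its MI arrays (230.5 to 426) were above all its GV arrays (79.2 to 131.3), so the −6% of Kat5 also holds for the brightest one only. An F test over the 3 stages called 15 of the 83 members (18.1%), where it called 11.6% of all genes.

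The array held 121 further probe sets for the members. Of those with a mean of 100 or more, all 14 belonging to members that passed in MII against GV changed in the direction of the brightest one, in 9 genes. For the members that did not pass, 15 of 19 did. Probe sets of one gene can read different ends or isoforms of its mRNA, and those used for Kat5, Kat14, Kdm5b, Hdac3, Kdm6b and Prmt2, and for the partners Carm1, Supt20, Jarid2 and Rbbp7 described further on, carry a suffix that marks probes shared with other transcripts, so their values are less certain.

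**Figure D4:**
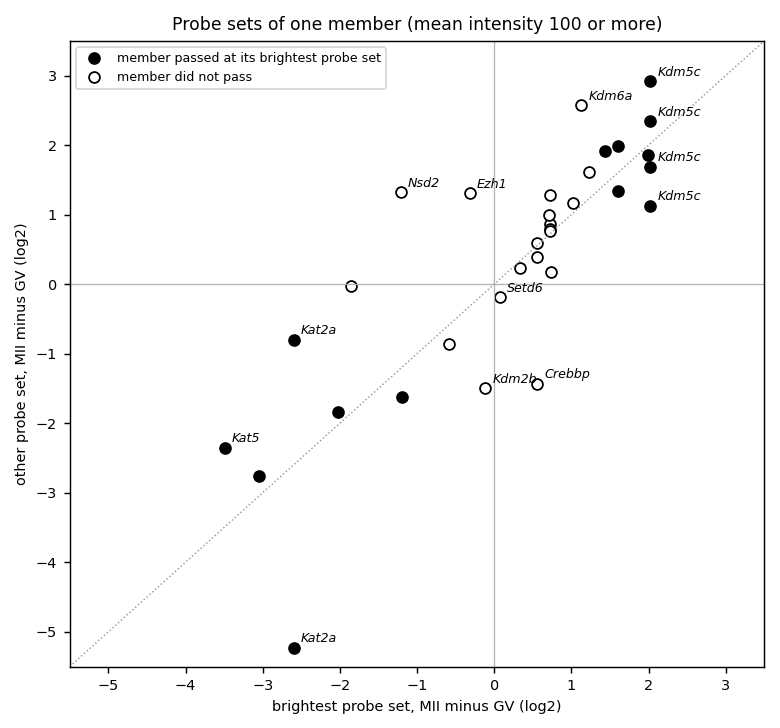
Change in MII minus GV (log2) of the brightest probe set of a member (horizontal) against that of its other probe sets with a mean intensity of 100 or more (vertical); filled points belong to members that passed, open points to others, and the dotted line marks equal change. The 14 filled points lie in the 2 quadrants of equal sign, while 4 of the 19 open points, for Crebbp, Ezh1, Nsd2 and Setd6, do not.

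Enzymes act within complexes, and the partner subunits were counted from lists of textbook members. Of 9 PRC2 subunits beside the Ezh enzymes, 5 passed as higher in MII than in GV and 0 as lower (55.6%, where 14.3% of all genes passed), with a median of 1.29. Among the 8 with a mean of 100 or more, 50% passed, where 31.7% of such genes did. With a pseudocount of 1, Aebp2, Rbbp7 and Jarid2 did not pass (adjusted p = 0.0674, 0.0814 and 0.101). Eed, which binds H3K27me3 and activates the enzyme, had 2583, 2509 and 3089 on the MII arrays, against 1138, 695 and 685 on the GV arrays. MII and GV arrays did not overlap, and Eed was 3.28-fold higher (log2 1.72, SE 0.26, adjusted p = 0.00444). Phf19, an accessory subunit that binds H3K36 methylation, had 146, 151 and 239.6 on the MII arrays, against 15.4, 34.3 and 7.39 on the GV arrays. The GV arrays were near background and all MII arrays above them, 5.71-fold higher (log2 2.51, SE 0.38, adjusted p = 0.00449). Aebp2, another accessory subunit, was 3.33-fold higher (log2 1.73, SE 0.44, adjusted p = 0.034), and did not pass without GV 1, GV 2, GV 3, MII 1, MII 2 or MII 3 (adjusted p 0.0579 to 0.105). Rbbp7, a histone-binding subunit shared with deacetylase complexes, rose by 1.29 (adjusted p = 0.0117). Jarid2, chosen after its values were seen, rose by 1.19 (adjusted p = 0.0162), which was lost without GV 1 or GV 3 (adjusted p 0.0502 to 0.0553).

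Of 10 subunits of the COMPASS complexes, which methylate H3K4, Cxxc1 passed as higher and none as lower (10%, below the 14.3% of all genes). All 10 had a mean of 100 or more, and 31.7% of such genes passed. Cxxc1, which brings the SETD1 complexes to unmethylated CpG islands, had 842, 1245 and 1210 on the MII arrays, against 291, 253 and 349.8 on the GV arrays. The groups did not overlap, and Cxxc1 was 3.53-fold higher (log2 1.82, SE 0.24, adjusted p = 0.00294) in MII.

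Of 25 measured subunits of acetyltransferase complexes, 4 were higher and 3 lower, with a median of 0.22. Their share was 28%, and at a mean of 100 or more it was 33.3%, near the 31.7% of all such genes. Ing3, a NuA4 subunit that reads H3K4me3 and thus a partner of Kat5, had 1585, 2013 and 1836 on the MII arrays, against 226, 76.6 and 91.5 on the GV arrays. The groups did not overlap, and Ing3 was 13.6-fold higher (log2 3.76, SE 0.37, adjusted p = 0.00128), opposite in sign to Kat5. Epc1, another NuA4 subunit, chosen after its values were seen, was 4.06-fold lower (log2 −2.02, SE 0.54, adjusted p = 0.0431), in the direction of Kat5. Tada2a, which supports Gcn5 in the ATAC complex, was 4.85-fold higher (log2 2.28, SE 0.28, adjusted p = 0.0021) in MII than in GV. Sgf29, which reads H3K4 methylation for SAGA and ATAC, had 918, 176 and 645 on the MII arrays, against 4289, 3386 and 4229 on the GV arrays. Its MII arrays were below all GV arrays, 8.06-fold lower (log2 −3.01, SE 0.53, adjusted p = 0.00832). Supt20, a structural SAGA subunit, was 6.18-fold lower (log2 −2.63, SE 0.49, adjusted p = 0.0107), but averaging its probe sets gave −0.81 (adjusted p = 0.0878). The ATAC and SAGA members thus passed in both directions, with Kat2a, Kat14, Sgf29 and Supt20 lower and Tada2a higher.

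Of 18 measured subunits of deacetylase complexes, 1 was higher and 2 lower (16.7%, where 14.3% of all genes passed), with a median of 0.27. Among the 14 with a mean of 100 or more, 21.4% passed, below the 31.7% of such genes. Sin3b, a scaffold on which HDAC1 and HDAC2 assemble, had 1497, 1626 and 1339 on the MII arrays, against 4090, 7305 and 5203 on the GV arrays. The groups did not overlap, and Sin3b was 3.6-fold lower (log2 −1.85, SE 0.26, adjusted p = 0.00325). Of the NuRD subunits listed, Gatad2b and Mta1 passed, in opposite directions. Gatad2b was 2.6-fold higher (log2 1.38, SE 0.33, adjusted p = 0.0275) in MII than in GV, and its call was lost without GV 2, GV 3, MII 1 or MII 3 (adjusted p 0.0517 to 0.0868). Mta1 fell with a change of −2.14 (adjusted p = 0.0275), a call lost without GV 1, GV 2, GV 3, MII 2 or MII 3 (adjusted p 0.0698 to 0.0834). Averaging probe sets gave 0.77 for Gatad2b (adjusted p = 0.0699) and −0.83 for Mta1 (adjusted p = 0.0673).

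Histone-modifying enzymes whose symbols fall outside the family names added 3 higher and 1 lower of 13 measured writers, and 0 of 8 erasers by limma (1 at an unadjusted p under 0.05). The writers' share was 30.8%, or 44.4% of the 9 with a mean of 100 or more, against 14.3% and 31.7% of all genes. Carm1, or Prmt4, which dimethylates arginines of histone H3, had 84.1, 14.8 and 89.4 on the MII arrays, against 352, 725 and 1199 on the GV arrays. Its MII arrays were below all GV arrays, 10.1-fold lower (log2 −3.33, SE 0.60, adjusted p = 0.00942), opposite in sign to Prmt1. Smyd3, a SET and MYND domain methyltransferase, had 1496, 1485 and 1841 on the MII arrays, against 367, 265 and 472 on the GV arrays. It was 4.31-fold higher (log2 2.11, SE 0.26, adjusted p = 0.00229), without overlap, but averaging its probe sets gave 0.91 (adjusted p = 0.0915). Naa40, which acetylates the amino terminus of histones H4 and H2A, was 5.36-fold higher (log2 2.42, SE 0.40, adjusted p = 0.00656) in MII than in GV. The coactivator Ncoa3 was 5.75-fold higher (log2 2.52, SE 0.69, adjusted p = 0.0471) in MII, and did not pass without GV 1, GV 3, MI 1, MI 2, MI 3, MII 1 or MII 3 (adjusted p 0.0617 to 0.141) or with averaged probe sets (1.30, adjusted p = 0.0614).

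**Figure D5:**
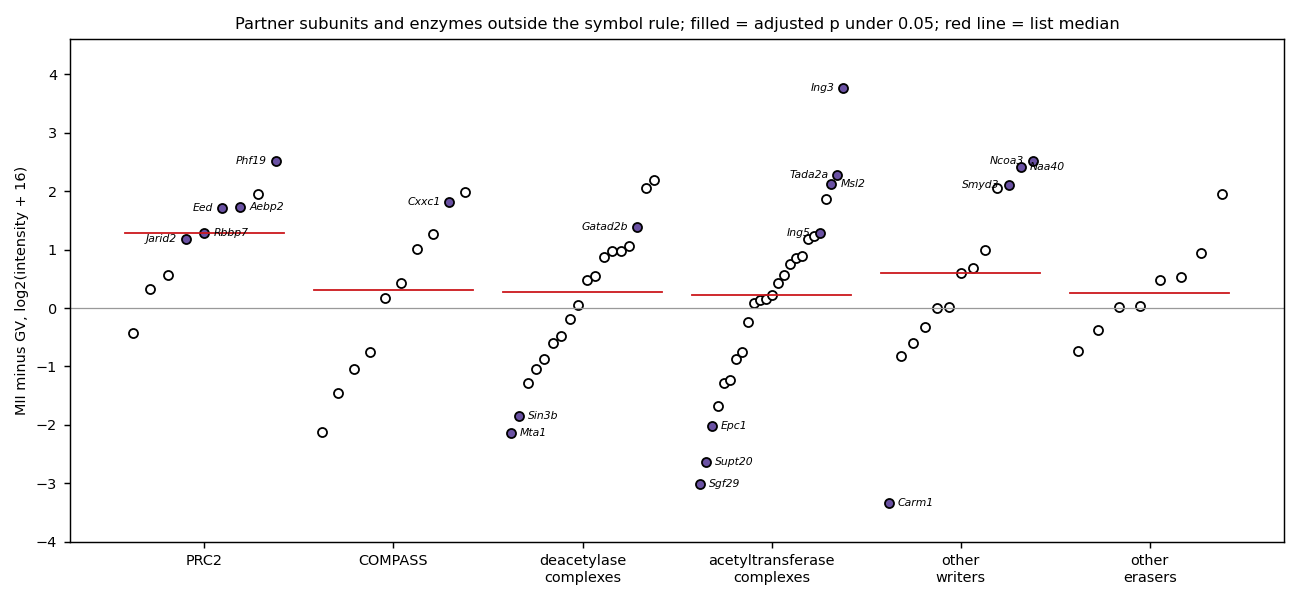
Change in MII minus GV (log2(intensity + 16)) of each measured subunit of 4 groups of complexes and of writers and erasers outside the family names, sorted within each list; filled points passed at an adjusted p under 0.05 and red lines are list medians. The PRC2 list has its median at 1.29 and 5 filled points, all above 0.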

How the data were processed

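Per the labels' protocols, mRNA bound to polysomes was cleaned up on kit columns, made into cDNA, amplified by a system for degraded RNA, then fragmented and biotin-labelled. The values are the authors' deposited intensities on a linear scale, 1 per probe set and array. How probes were summarised, corrected for background or scaled is not given in the sources used here, and no genome build is named. Precision is limited by the number of arrays.

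Of 45101 probe sets, 64 controls were left out, and the 34945 with 1 symbol in the platform annotation were used, while 932 had several and 9160 none. The probe set with the highest mean log2 value stood for its gene. Identifiers of 18032 of the 18193 genes matched the RefSeq table used here (GRCm38.p6). Suv39h1 was not analysed here. Values as log2(intensity + 16), unfiltered, were fitted with 3 stage means over 9 arrays by limma 3.58.1 (lmFit, eBayes; R 4.3.3), and two-sided p-values were adjusted by Benjamini-Hochberg over all genes. The fit was tested on simulated data.

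Members, lists and tests were chosen with earlier results of these data known, so no list was tested as a whole and lists are described by counts and medians. Named genes were those that passed in any contrast, per class the 2 brightest and the 1 with the smallest p in MI against GV, and up to 4 partners per list that passed with the largest change. Others are said to be chosen after their values were seen. A call was lost where leaving out 1 array took its adjusted p to 0.05 or above. Alternatives were other pseudocounts, a filter on low values, scalings, probe set choices, variance models, the stages fitted, a replicate block and leaving out arrays.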

Additional observations from a re-analysis of the deposited data

How the results depend on the processing

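No change of a member that passed was reversed under any alternative. Members that passed in MII against GV (9 higher and 9 lower) numbered 6 to 13 higher and 4 to 10 lower when single arrays were left out. In MII against MI (4 higher and 6 lower) they numbered 2 to 5 higher and 2 to 5 lower, with 0 in MI against GV. Quantile normalization gave 14 higher members in MII against GV and 13 in MII against MI, scaling to a common 95th percentile gave 14 and 11, and centring on array medians gave 8 higher in MII against MI. Centring moved the median of all genes from −0.02 to 0.14 (MII against GV) and 0.17 (MII against MI), so its changes are to be read relative to that shift. A pseudocount of 1 left 1 higher member in MII against MI, and fitting only the 2 stages compared left 2 lower ones. The causes were not tested. Of the 18 calls in MII against GV, a pseudocount of 1 ended those of Hdac2, Kdm7a, Kmt5a and Suv39h2, fitting only the stages compared those of Hdac2, Kat2a, Setd4 and Suv39h2, averaging probe sets that of Kdm5b, and an intensity trend in the variance that of Hdac8. Among partners, a pseudocount of 1 ended the calls of Aebp2, Gatad2b, Jarid2, Ncoa3 and Rbbp7, and averaging probe sets those of Gatad2b, Mta1, Ncoa3, Smyd3 and Supt20.

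The median change of writers in MII against GV (0.31) was 0.09 to 0.39 without single arrays, 0.53 without the lowest 40% of genes, 0.52 after quantile normalization and after 95th percentile scaling, 0.47 after centring and 0.19 when a gene's probe sets were averaged. That of erasers (0.34) was 0.07 to 0.38 without single arrays, 0.16 with a pseudocount of 64, 0.53 without the lowest 40%, 0.50 after centring and 0.15 with averaged probe sets. Writers minus erasers (−0.03) was −0.30 to 0.32 without single arrays and 0.12 after quantile normalization. Without GV 3 and MI 3, an alternative chosen after seeing the data, the writers' median was 0.09, the difference −0.30, and 3 members were lower in MII against MI, while Kat2a, Kdm7a, Prmt7, Setd4, Sirt7 and Suv39h2 no longer passed in MII against GV.

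With the replicate number as a block, 7 members were higher and 3 lower in MII against MI, and 10 and 10 in MII against GV. Correlations between arrays of 2 stages, after removing stage means, ran from 0.01 to 0.23 for same-numbered arrays. For differently numbered arrays they ran from −0.25 to 0.11, so the ranges overlap but the same-numbered ones lie higher. The labels do not say what a number shares, and whether the numbers pair samples was not tested.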
